A study of Mus musculus with 8 samples.

Results

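Nuclear receptors are transcription factors that bind DNA in the nucleus, and most of them are switched by small fat-soluble ligands such as steroids, thyroid hormone, retinoids, oxysterols and foreign chemicals. Many act as a pair with a retinoid X receptor and recruit coactivator or corepressor proteins to the genes they bind. In the liver they govern hormone responses, bile acid, lipid and glucose metabolism and the clearance of drugs, and CAR and PXR control enzymes that handle acetaminophen. The genes described here are 36 named members of this family, the receptors for estrogen, progesterone, corticosteroids, thyroid hormone, retinoids, oxysterols, vitamin D and xenobiotics with a set of orphan receptors. They were taken by gene name from the 36666 names with a non-control probe on the array, and 82 probes carried one of the 36 names.

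Livers of male mice aged 80 weeks (4 samples) and 8 weeks (4 samples) were taken 8 h after acetaminophen, a painkiller that damages hepatocytes in overdose through a reactive metabolite. Total RNA of each sample was hybridised to a single-colour Agilent array. Both groups received the drug. The dose and the mouse strain are not given in the sources used here, and untreated livers were not analysed here. The labels do not say whether each array held a separate animal, so the p-values reflect only how far these samples spread, and that spread may be technical. All 8 arrays lay on 1 slide read in 1 scan, with the 80-week samples in row 2 and the 8-week samples in row 1, so slide row and age cannot be told apart.

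Each value is a log2 intensity from which the array's own 75th percentile was subtracted, and each difference is the 80-week mean minus the 8-week mean. The arrays had 24540 to 28540 probes well above background. All 8 hepatocyte markers were above background on every array. Their summed linear level relative to the array's 75th percentile was 3008 to 5068 in 80-week livers and 2182 to 4405 in 8-week livers. It was lowest in 8-week replicate 2, and its part in the receptor values was not tested. 8-week replicates 1 and 2 stood apart from the other arrays, at -61.3 and -99.2 on a first principal component that held 49.1% of the variance, against 17.0 to 47.5 for the 80-week arrays and 10.2 and 12.3 for 8-week replicates 3 and 4. The plot of differences gives every tested receptor with and without these arrays, and the text gives both where they part by more than 1.5 times. In whole liver, fewer cells of a type and less RNA per cell cannot be told apart.

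Of the 36 receptor genes, 31 had a probe that cleared background on 4 or more arrays and were tested, each through its brightest such probe. None of the 31 passed an adjusted p of 0.05 in limma's test over 17565 genes, in either direction. Over all genes tested, 0.33% were called higher and 0.0285% lower in 80-week livers. The lowest adjusted p among the receptors was 0.217, for Esrrg. At an unadjusted p under 0.05, 6 of the 31 were higher in 80-week livers (Esr1, Esrrb, Esrrg, Nr4a1, Nr4a2 and Rxra, or 19.4%) and 0 were lower, beside 7.91% and 6.14% of all genes. The difference was positive for 23 receptors and negative for 8, with a median of 0.24, beside a median of 0.018 over all genes, of which 52.0% were positive. The receptors were chosen with earlier results of these data known, so these shares are a description and not a test.

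**Figure D1:**
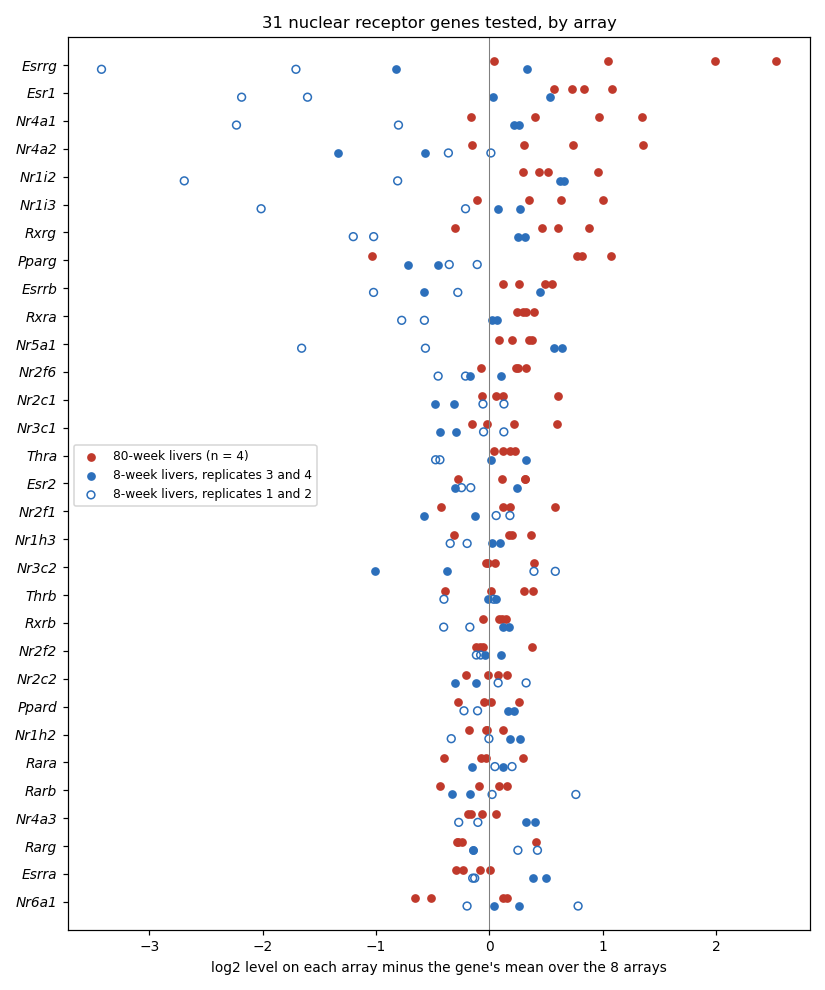
Each line is 1 of the 31 tested receptor genes, and each point is 1 array, as its log2 level minus the gene's mean over the 8 arrays (red, 80-week livers; filled blue, 8-week replicates 3 and 4; open blue, 8-week replicates 1 and 2). Esr1 and Rxra have all red points to the right of all blue points, and the open points lie far to the left for Esrrg, Nr1i2 and Esr1.

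The 80-week and 8-week groups did not overlap for 2 receptors, Esr1 and Rxra, both higher in 80-week livers (6.45%), beside 4.62% of all genes with all 80-week arrays above and 3.76% with all below. 8-week replicates 1 and 2 were low for many receptors. They were the lowest arrays of all for 11 of the 31 receptors (35.5%), against 22.4% of all genes, and the highest for 0, against 15.9%. The single lowest array was 8-week replicate 2 for 8 of the 31 receptors, against 35.1% of all genes. Without 8-week replicates 1 and 2 the median difference was 0.15, beside -0.057 over all genes. The difference was then positive for 21 receptors (67.7%), beside 42.5% of all genes. The receptors at an unadjusted p under 0.05 were then Nr2c1, Nr3c2 and Nr4a2 on the higher side, 3 beside 4.27% of all genes, and Esrra and Nr4a3 on the lower side, 2 beside 4.75% of all genes. Nr4a2 was the only receptor in both sets. Among the remaining 6 arrays the groups did not overlap for 6 receptors with all 80-week arrays above, Nr2c1, Nr3c1, Nr3c2, Nr4a2, Esr1 and Rxra (19.4%, beside 7.89% of all genes). They also did not overlap for 4 receptors that were lower in 80-week livers, Esrra, Nr1h2, Nr4a3 and Nr5a1 (12.9%, beside 14.1% of all genes).

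**Figure D2:**
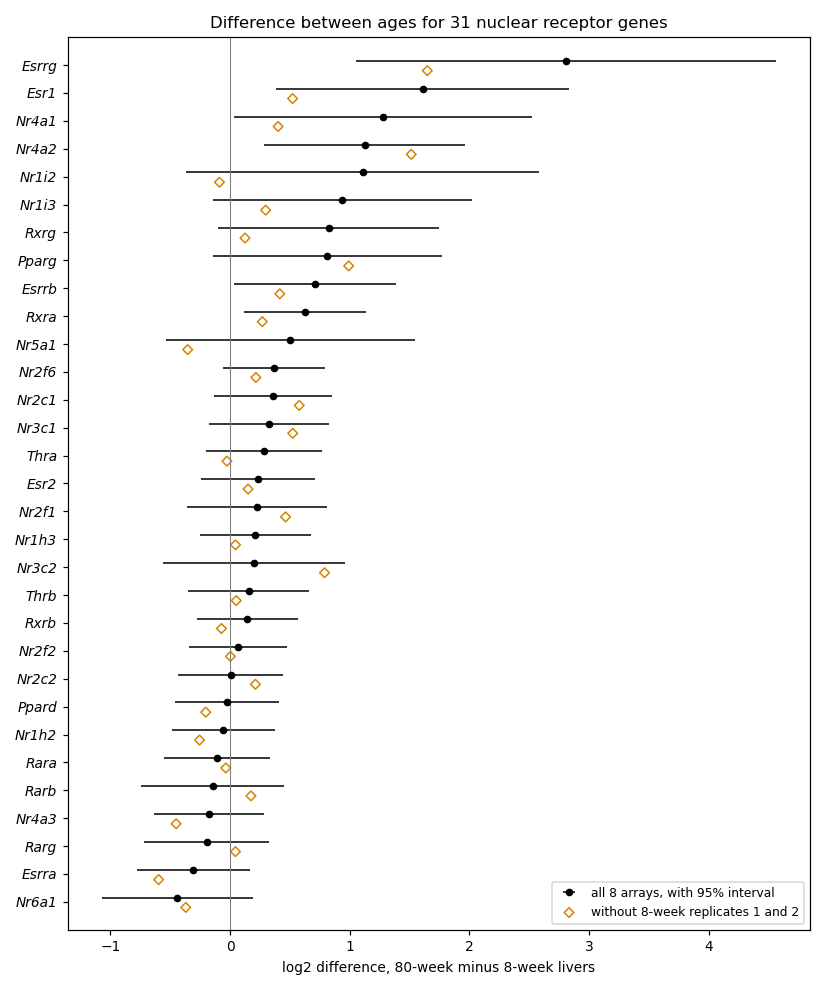
Log2 difference (80-week minus 8-week livers) of the 31 tested receptors, with its 95% interval over all 8 arrays (black) and the value without 8-week replicates 1 and 2 (orange diamonds). Intervals of 6 receptors lie above 0, and the diamond of Nr1i2 lies on the other side of 0 from its black point at 1.11.

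The steroid hormone receptors are held by heat shock protein chaperones until their hormone binds. Esr1, the main estrogen receptor of liver, stood at 1.21, 0.95, 1.11 and 1.46 in 80-week livers (replicates 1 to 4), against -1.81, -1.23, 0.91 and 0.41 in 8-week livers. The 80-week arrays lay close together and all above the 8-week arrays, of which replicates 1 and 2 were far below replicates 3 and 4. The difference was 1.61 (SE 0.55, adjusted p = 0.289 in limma), a fold of 3.05, and it was 0.52 without 8-week replicates 1 and 2.

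Esr1 had 7 probes, and they did not give the same picture. The brightest, at chr10:5341167-5341226 of mouse build mm9, and another at chr10:5343056-5343115 were above background on all 8 arrays. The second of these stood at 0.31, 0.095, 0.65 and 0.65 in 80-week livers, against -2.26, -2.32, -0.15 and -0.24 in 8-week livers, again with no overlap and with a difference of 1.67 (probe-level adjusted p = 0.257 in limma). The other 5 Esr1 probes were above background on 2, 1, 0, 0 and 0 arrays. One of them, at chr10:5345046-5345105, lies in the same stretch of chromosome 10 and was above background on 0 arrays. The first 30 bases of these 3 probes are shown because they carry one gene name and different signals; the exon or UTR each lies in was not analysed here.
Esr1, brightest probe: attttccttcacagcgtacaaacaacgctt
Esr1, second probe: ttttttgtagacgtttcaaactaccgtgtc
Esr1, probe not above background: tccccgaaaggttctgagaatccctgcaac

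Esr2, the second estrogen receptor, stood at 2.24 to 2.84 in 80-week livers and at 2.22 to 2.76 in 8-week livers, and the groups overlapped (difference 0.24, 95% interval -0.24 to 0.71, and 0.15 without 8-week replicates 1 and 2). Its other probe was above background on 0 arrays. Nr3c1, the glucocorticoid receptor, stood at 4.12, 3.74, 3.87 and 4.50 in 80-week livers, against 3.84, 4.02, 3.46 and 3.60 in 8-week livers. Here 8-week replicates 1 and 2 were the higher of their group, so the difference of 0.32 (95% interval -0.18 to 0.83) became 0.52 without them. Nr3c2, the mineralocorticoid receptor, likewise had 8-week replicates 1 and 2 above replicates 3 and 4. It stood at 0.82, 0.88, 0.80 and 1.23 in 80-week livers and 1.22, 1.41, 0.46 and -0.18 in 8-week livers. Its difference of 0.20 (adjusted p = 0.798 in limma) became 0.79 without 8-week replicates 1 and 2. Pgr, the progesterone receptor, had 4 probes, none above background on any array.

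Thyroid hormone and retinoid receptors bind DNA with the retinoid X receptors. Rxra, the main retinoid X receptor of liver, stood at 7.85, 7.80, 7.88 and 7.95 in 80-week livers, against 6.78, 6.98, 7.58 and 7.62 in 8-week livers. All 80-week arrays lay above all 8-week arrays and within a narrow range, while 8-week replicates 1 and 2 were lowest. The difference was 0.63 (SE 0.23, adjusted p = 0.305 in limma), a fold of 1.55, and 0.27 without those 8-week replicates. A dimmer Rxra probe gave 0.70, with groups that overlapped. Rxrg, another retinoid X receptor, stood at 0.16, 0.93, 1.08 and 1.35 in 80-week livers, against -0.73, -0.55, 0.78 and 0.72 in 8-week livers. Replicates 1 and 2 were again the low 8-week arrays, and the difference of 0.82 became 0.13 without them. Rxrb, which is made in most tissues, differed by 0.14 (95% interval -0.28 to 0.57), and by -0.072 without 8-week replicates 1 and 2.

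Among thyroid hormone receptors, Thrb, the form that carries most of the hormone's effect in liver, differed by 0.16 (95% interval -0.35 to 0.66), and by 0.052 without 8-week replicates 1 and 2. Thra stood at 1.91, 2.04, 1.98 and 2.09 in 80-week livers, against 1.39, 1.43, 2.18 and 1.88 in 8-week livers, with 8-week replicates 1 and 2 low. Its difference was 0.29 and turned to -0.026 without them. The retinoic acid receptors Rara, Rarb and Rarg had differences of -0.11, -0.15 and -0.20, each with an interval that held 0. Without 8-week replicates 1 and 2 these were -0.035, 0.17 and 0.045. Rarb, which is itself induced by retinoic acid, stood at -0.98 to -0.39 in 80-week livers and -0.87 to 0.22 in 8-week livers.

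The half-site AGGTCA is the short DNA word that many of these receptors bind, and it was searched on both strands (AGGTCA or TGACCT) in the 250 bases before each RefSeq gene start of build GRCm38.p6. Promoters were matched for 32 of the 36 receptors, and 8 of their 50 promoters held the letters (16%), against 4607 of 32851 promoters (14.0%). The genes were Nr0b1, Nr6a1, Pparg, Rarg, Rxra, Rxrg and Thrb. The share was close to that of all promoters, and a match is a description, not a binding site. Windows of 100 bases from the partner receptors Rxra and Rxrg and from Thrb are printed below with the half-sites in capitals, because these receptors act on such letters. Each of these genes also had another promoter that did not hold the letters and is not shown.
Rxra, chr2:27709158-27709257, plus strand: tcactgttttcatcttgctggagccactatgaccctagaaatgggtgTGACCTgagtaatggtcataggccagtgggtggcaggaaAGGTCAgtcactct
Rxrg, chr1:167618130-167618229, plus strand: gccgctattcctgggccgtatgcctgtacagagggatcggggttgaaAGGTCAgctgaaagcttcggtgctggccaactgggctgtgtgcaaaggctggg
Thrb, chr14:17660729-17660828, plus strand: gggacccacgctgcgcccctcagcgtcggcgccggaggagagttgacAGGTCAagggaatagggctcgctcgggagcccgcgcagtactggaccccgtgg

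Of the receptors of lipids and foreign chemicals, all but Vdr had a probe above background on every array. Nr1i2, which encodes PXR, a sensor of drugs and bile acids, stood at 4.17, 3.51, 3.65 and 3.73 in 80-week livers, against 2.40, 0.52, 3.83 and 3.87 in 8-week livers. 8-week replicate 2 was far below all other arrays and replicate 1 next lowest, while replicates 3 and 4 lay among the 80-week arrays. The difference was 1.11 (SE 0.66, adjusted p = 0.449 in limma) and turned to -0.088 without 8-week replicates 1 and 2. Nr1i3, which encodes CAR, the receptor that induces Cyp2b10, stood at 2.41, 2.86, 3.52 and 3.14 in 80-week livers, against 2.30, 0.50, 2.59 and 2.78 in 8-week livers. 8-week replicate 2 stood far below every other array, and the groups overlapped. The difference was 0.94 (adjusted p = 0.398 in limma), and 0.30 without 8-week replicates 1 and 2.

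**Figure D3:**
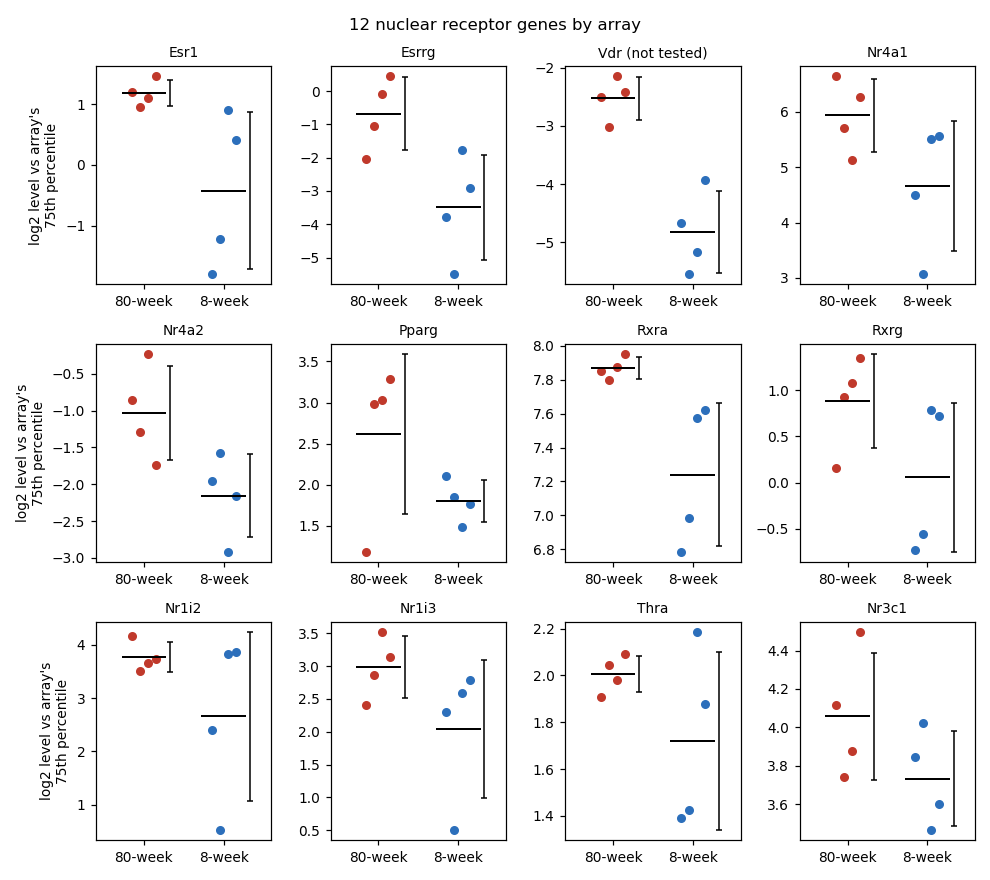
Log2 level relative to each array's 75th percentile for 12 receptor genes in 80-week livers (red) and 8-week livers (blue); each point is 1 array, the line is the mean and the bar is the SD (n = 4 each). Vdr was above background on 2 of the 80-week arrays and 0 of the 8-week arrays and was not tested in the main comparison, and the vertical scale differs between panels.

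Pparg, the receptor that drives fat storage, stood at 1.18, 2.98, 3.03 and 3.29 in 80-week livers, against 2.10, 1.86, 1.49 and 1.76 in 8-week livers. 3 of the 80-week arrays lay above every 8-week array, and 80-week replicate 1 lay below them all. The difference was 0.81 (SE 0.43, adjusted p = 0.407 in limma). Without 80-week replicate 1 it was 1.29 with an adjusted p of 0.0645 in limma, the lowest that any tested receptor reached under any setting. Ppard, a related receptor of fatty acids, differed by -0.026 (95% interval -0.46 to 0.41), and by -0.20 without 8-week replicates 1 and 2. Nr1h3 and Nr1h2, the oxysterol receptors LXR-alpha and LXR-beta, differed by 0.21 and -0.057, with 95% intervals of -0.26 to 0.68 and -0.49 to 0.37. Without 8-week replicates 1 and 2 they differed by 0.045 and -0.25.

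Vdr, the receptor of active vitamin D, is low in hepatocytes and is known from other liver cells such as stellate cells and macrophages. Its brighter probe, at chr15:97685136-97685195 of mm9, stood at -2.51, -3.02, -2.14 and -2.42 in 80-week livers, against -4.67, -5.56, -5.17 and -3.93 in 8-week livers. All 80-week arrays lay above all 8-week arrays, but the probe was well above background on only 2 of 4 80-week arrays and on 0 of 4 8-week arrays. It therefore did not enter the main comparison. The measured difference was 2.31. With the 8-week values raised to the lowest level that counted as above background on each array, the fold was 1.70. This allows for dim signal in the 8-week arrays only, since the 80-week values were kept as measured, and not for sampling error. The fold of 1.70 is therefore not a minimum.

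The second Vdr probe, at chr15:97685989-97686056, stood at -3.40, -3.69, -2.61 and -3.75 in 80-week livers, against -5.62, -6.19, -4.27 and -5.01 in 8-week livers. These groups did not overlap either, and 1 of the 80-week arrays was above background. Its 8-week values were also raised to the lowest level that counted as above background. The 80-week mean then lay below the 8-week mean, so no fold is given. With no filter on dim probes the brighter probe passed, with an adjusted p of 0.0469 (limma over 36666 genes, of which 0.196% were called higher). Filters that asked for signal above background on fewer arrays admitted Vdr only through the group where it is high, so their p-values say nothing of a difference. After normexp correction with an offset of 50 intensity units the difference was 0.49 with quantile scaling and 0.55 with the 75th percentile. Without 8-week replicates 1 and 2 it was 2.03. The summed linear level of 6 stellate cell markers was 170 to 248 in 80-week livers and 128 to 196 in 8-week livers, and that of 6 Kupffer cell markers was 65.3 to 252 in 80-week livers and 52.8 to 160 in 8-week livers. That of 5 recruited monocyte markers was 51.7 to 134 in 80-week livers and 58.8 to 124 in 8-week livers. The part of any of these cell types in the Vdr signal was not tested. The first 30 bases of both Vdr probes are given because neither overlapped between groups, though the second lay mostly below background.
Vdr, brighter probe: gaggcggaaatgggtaccaaaatgagagat
Vdr, second probe: ttcccatattgcatgcagaaggctttattt

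**Figure D4:**
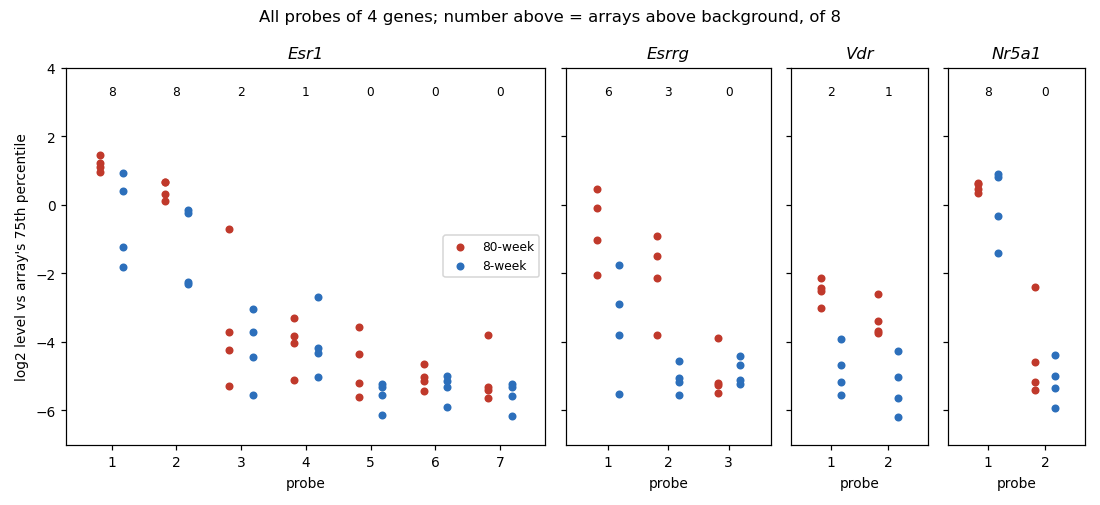
Log2 level relative to each array's 75th percentile for every probe of Esr1, Esrrg, Vdr and Nr5a1 in 80-week livers (red) and 8-week livers (blue), 1 point per array; the number above each probe is how many of the 8 arrays were above background. Esr1 probes 1 and 2, Esrrg probe 2 and both Vdr probes show all 80-week points above all 8-week points.

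The estrogen-related receptors have no known hormone and act on genes of mitochondrial energy metabolism. Esrrg stood at -2.05, -1.04, -0.092 and 0.45 in 80-week livers, against -3.79, -5.51, -1.75 and -2.91 in 8-week livers. The values spread widely in both groups and overlapped, since 8-week replicate 3 was above 80-week replicate 1. The difference was 2.81 (SE 0.78, 95% interval 1.05 to 4.57, adjusted p = 0.217 in limma), the largest among the tested receptors, and 1.65 without 8-week replicates 1 and 2. The probe was above background on all 4 80-week arrays and on 2 of 4 8-week arrays, so the size rests in part on dim signal.

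A second Esrrg probe, at chr1:190038192-190038251 of mm9, stood at -3.80, -2.14, -1.49 and -0.92 in 80-week livers, against -5.56, -5.05, -4.57 and -5.17 in 8-week livers. The groups did not overlap, and the probe was above background on 3 80-week arrays and 0 8-week arrays, so it was not tested. With the 8-week values raised to the lowest level that counted as above background on each array, the fold was 2.30. The 80-week values were kept as measured and sampling error was not allowed for, so this is not a minimum. The remaining probe, at chr1:189617558-189617617, was above background on 0 arrays. The first 30 bases of the pair that gave signal are shown, since they lie within one stretch of chromosome 1.
Esrrg, tested probe (chr1:190038683-190038742): ccaatcagttcagatatgtaactcaaatta
Esrrg, second probe: cttgtagtgactctcgtgttttaatcaagc

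Esrrb, a receptor best known from pluripotent cells, stood at -1.75, -1.98, -2.12 and -1.69 in 80-week livers, against -2.52, -3.26, -1.79 and -2.81 in 8-week livers. 8-week replicate 3 lay inside the 80-week range and the other 8-week arrays below it (difference 0.71, adjusted p = 0.345 in limma, and 0.42 without 8-week replicates 1 and 2). Esrra, the most widely made member, ran the other way, at 3.82, 4.03, 3.88 and 4.11 in 80-week livers and 3.98, 3.96, 4.61 and 4.50 in 8-week livers. 8-week replicates 3 and 4 were above all other arrays, and the difference of -0.31 became -0.60 without replicates 1 and 2.

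The Nr4a receptors are early response genes whose transcripts appear within minutes to hours of a stimulus and which need no ligand. Nr4a1 stood at 6.64, 5.70, 5.13 and 6.26 in 80-week livers, against 4.49, 3.06, 5.51 and 5.56 in 8-week livers. 80-week replicate 3 lay below 8-week replicates 3 and 4, and 8-week replicates 1 and 2 were lowest. The difference was 1.28 (adjusted p = 0.352 in limma), and 0.40 without those 8-week replicates. Nr4a2 stood at -0.86, -1.28, -0.23 and -1.74 in 80-week livers, against -1.95, -1.58, -2.93 and -2.16 in 8-week livers. Only 80-week replicate 4 fell within the 8-week range, and 8-week replicate 3, not 1 or 2, was lowest. Its difference of 1.13 (SE 0.37, adjusted p = 0.283 in limma) became 1.51 without 8-week replicates 1 and 2. A second Nr4a2 probe gave 0.89. Nr4a3 differed by -0.18 (95% interval -0.63 to 0.28), and by -0.45 without 8-week replicates 1 and 2.

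Of the orphan receptors, Nr2f2, a COUP transcription factor of veins and stromal cells, and its relative Nr2f1 differed by 0.066 and 0.23, with 95% intervals of -0.34 to 0.47 and -0.36 to 0.81. Without 8-week replicates 1 and 2 they differed by 0.0032 and 0.46. Nr2f6, an orphan receptor of the same subfamily, stood at 4.48 to 4.88 in 80-week livers and 4.11 to 4.66 in 8-week livers (difference 0.36, adjusted p = 0.403 in limma, and 0.22 without 8-week replicates 1 and 2). Nr2c1 and Nr2c2, the testicular orphan receptors, differed by 0.36 and 0.0072, and by 0.58 and 0.21 without 8-week replicates 1 and 2. Nr6a1, a repressor known from germ cells and early embryos, had the largest negative difference, -0.44 (95% interval -1.07 to 0.19), with 8-week replicate 1 the highest array.

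Nr5a1, the steroidogenic factor of adrenal and gonad, stood at 0.62, 0.45, 0.60 and 0.33 in 80-week livers, against -0.32, -1.41, 0.89 and 0.82 in 8-week livers. 8-week replicates 3 and 4 were the highest of all arrays and replicates 1 and 2 the lowest, so the difference of 0.50 turned to -0.35 without the low arrays. This probe, at chr2:38548180-38548239 of mm9, was above background on 8 arrays, and a second Nr5a1 probe, at chr2:38556959-38557018, on 0. Of 7 adrenal and gonad markers, Cyp11a1, Cyp11b1 and Hsd3b1 were above background on 0 arrays, and their summed linear level over all 7 was 8.20 to 11.9 in 80-week livers and 5.74 to 20.8 in 8-week livers. Hnf4g, a hepatocyte nuclear factor of gut, Nr0b1, a repressor of adrenal and gonad that lacks a DNA-binding domain, and Nr2e3, a receptor of photoreceptor cells, had 1 probe each that was above background on 0 arrays.

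For 19 of the 31 receptors the 95% interval of the difference lay within -1 and 1, so a change of more than 2-fold fell outside it. Differences above 1 in size were seen for 5 receptors (Esrrg, Esr1, Nr4a1, Nr4a2 and Nr1i2, or 16.1%), against 7.15% of all genes. Of 15 receptors with more than 1 tested probe, 12 had the same sign on all of them, and Thra, Rxrb and Nr2c2 did not.

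Genes that carry out or bring about receptor signalling were described through 11 lists holding 120 genes, of which 112 were tested. Of these 1, Cidea, was called higher and 0 were called lower. At an unadjusted p under 0.05, the numbers higher in 80-week livers were 6 of 9 PPAR-gamma and PPAR-delta targets, 6 of 8 thyroid hormone genes, 5 of 8 retinoic acid genes, 5 of 13 hormone activation and carrier genes, 4 of 12 LXR targets and 2 of 13 glucocorticoid targets. On the lower side stood 5 of 10 chaperones and 1 thyroid hormone gene. The coactivator and corepressor list had 2 on each side and the CAR and PXR list 1 on each side, while the ERR and vitamin D lists had 0. Over all genes tested, 7.91% were higher and 6.14% lower at that p, and 0.33% and 0.0285% passed the adjusted p. The lists were chosen with earlier results of these data known, so their counts are a description and not a test of the lists. Klf9, Dio1 and Fkbp5 are each counted in a pair of lists. The groups did not overlap for 4.62% of all genes with the 80-week arrays above and 3.76% with them below. Of 9 tested targets of PPAR-gamma and PPAR-delta, 7 were positive (median 1.56), and Cidea, a lipid droplet protein, was the gene that passed. Cidea stood at 4.19, 7.0, 7.44 and 6.46 in 80-week livers, against -2.85, -2.49, -2.02 and -3.42 in 8-week livers (difference 8.97, adjusted p = 0.000752 in limma), and its probe was above background on 3 of 4 8-week arrays. 80-week replicate 1 was the lowest 80-week array for Cidea and for Pparg, but not for every gene of the list. A link between Cidea and Pparg was not tested. Plin4, which coats lipid droplets, and Pdk4, which spares glucose, did not overlap between groups, with differences of 1.73 and 1.56 (adjusted p = 0.193 and 0.211 in limma), and of 0.99 and 1.12 without 8-week replicates 1 and 2. The list's median without 8-week replicates 1 and 2 was 0.99.

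**Figure D5:**
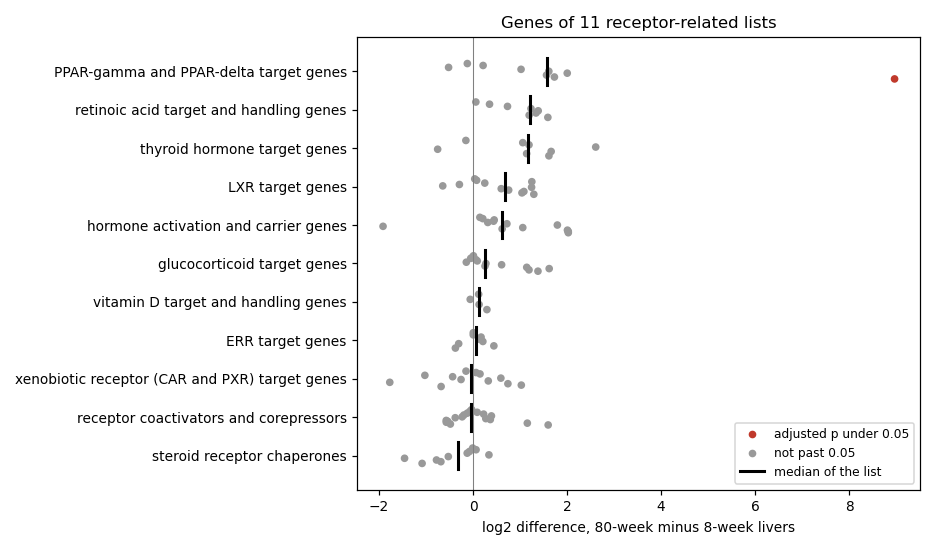
Log2 difference (80-week minus 8-week livers) of each tested gene in 11 lists of receptor targets and partners, with the list median as a black bar. Cidea, in red at 8.97, is the only gene past an adjusted p of 0.05.

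All 8 tested retinoic acid genes were positive (median 1.21; 0.75 without 8-week replicates 1 and 2), and 0 passed the test. Cyp26a1, which breaks down retinoic acid, stood at 0.70, 0.76, 2.02 and 2.04 in 80-week livers, against -0.28, -0.63, -0.056 and 0.12 in 8-week livers, with no overlap (difference 1.59, adjusted p = 0.135 in limma). Lrat, which stores retinol as esters in stellate cells, differed by 1.34, with groups that overlapped. Of 8 thyroid hormone genes 6 were positive (median 1.17; 0.60 without those arrays) and 0 passed. Gpd2, a mitochondrial enzyme induced by the hormone, stood at 2.24, 2.52, 2.33 and 2.12 in 80-week livers, against 0.79, 0.84, 1.29 and 1.72 in 8-week livers, with no overlap (difference 1.14, adjusted p = 0.108 in limma). Hr, a corepressor of its receptor, showed no overlap either, but its probe was above background on 3 of 4 80-week arrays and 1 of 4 8-week arrays, so the size of its difference is not given.

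Of 12 LXR targets 10 were positive (median 0.68; 0.19 without 8-week replicates 1 and 2). Srebf1, the regulator of fatty acid synthesis, differed by 1.29 (adjusted p = 0.172 in limma), and the sterol exporters Abcg5 and Abcg8 by 1.04 and 1.08 (0.51 and 0.48 without those arrays). Of 13 hormone activation and carrier genes 12 were positive (median 0.62; 0.068 without those arrays). Akr1c6, a hydroxysteroid dehydrogenase, stood at 7.69, 8.02, 8.89 and 8.94 in 80-week livers, against 6.69, 5.55, 5.99 and 7.21 in 8-week livers, with no overlap (difference 2.03, adjusted p = 0.0985 in limma). Cyp7b1, an oxysterol and steroid hydroxylase, and Serpina6, the carrier of corticosteroids in blood, did not overlap either, at differences of 2.03 and 2.01. The 13 glucocorticoid targets had a median of 0.26 with 10 positive, and -0.15 without those arrays. Zbtb16 and Klf9 are transcription factors induced by the hormone. Zbtb16 differed by 1.38 and Klf9 by 1.19, and by 0.72 and 0.41 without those arrays.

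Of 10 steroid receptor chaperones 2 were positive, with a median of -0.32 (-0.26 without 8-week replicates 1 and 2). Hsp90aa1 and Hsp90ab1, the cytosolic Hsp90 forms that hold steroid receptors ready, had differences of -1.08 and -0.68 and no overlap between groups (adjusted p = 0.164 and 0.201 in limma). Hsp90aa1 stood at 5.98, 6.71, 5.90 and 5.83 in 80-week livers, against 7.75, 6.99, 7.06 and 6.95 in 8-week livers. Among 18 coactivators and corepressors 7 were positive (median -0.053, and -0.074 without 8-week replicates 1 and 2), with Ppargc1b at 1.598 and Ppargc1a at 1.16, coactivators of energy metabolism, and Med1, a Mediator subunit, at -0.48. Without those arrays the values were 0.64, 0.76 and -0.29. The 12 tested CAR and PXR targets were split, with 6 positive and a median of -0.042 (-0.19 without 8-week replicates 1 and 2). Cyp2b10, the CAR target, stood at 1.72, 2.68, 5.88 and 6.18 in 80-week livers, against 5.61, 3.81, 7.40 and 6.74 in 8-week livers, a spread within both groups wider than the difference of -1.77 (-2.95 without those arrays). Of the 8 ERR targets 6 were positive (median 0.073), and of the 4 tested vitamin D genes 3 were positive (median 0.12), and without 8-week replicates 1 and 2 these medians were -0.32 and -0.34.

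Marker levels of other cell types, as sums of linear level relative to the array's 75th percentile, stand beside these values. The summed level of 5 B and plasma cell markers was 1.06 to 4.71 in 80-week livers and 0.277 to 0.529 in 8-week livers. Of these markers 1 was above background on all 8 arrays and Cd79a on 0, so the sum rests in part on dim signal. Of the 2 that were tested, 1 was called higher in 80-week livers, beside 0.33% of all genes. Neutrophil markers summed to 26.4 to 116 in 80-week livers and 75.8 to 147 in 8-week livers. Endothelial markers summed to 62.0 to 105 in 80-week livers and 60.2 to 101 in 8-week livers. Adipocyte markers summed to 18.03 to 27.6 in 80-week livers and 20.2 to 40.1 in 8-week livers. Cholangiocyte markers summed to 0.957 to 5.51 in 80-week livers and 4.97 to 5.69 in 8-week livers. T and NK cell markers summed to 3.38 to 4.32 in 80-week livers and 1.72 to 3.92 in 8-week livers. Their part in the receptor values was not tested.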

How the data were processed

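Total RNA of 8 liver samples was labelled with Cy3 and hybridised to single-colour Agilent arrays. Spot intensity in the scanner files was background-corrected by Feature Extraction 10.7.3.1, per the file headers; version 9.1 stands in the submitters' processing notes. The authors' deposited table of intensity values lay within 1% of the processed scanner intensity for 100% of 56605 probes. Here log2 was taken with no pseudocount, outlier spots (59 to 97 per array) were left out, repeat spots were averaged, and the 75th percentile of the array (154.7 to 352.8 intensity units) was subtracted. No spot was saturated. Probes above background on at least 4 of 8 arrays were tested, and the brightest such probe stood for a gene.

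Tests used limma 3.58.1 under R 4.3.3 with Benjamini-Hochberg adjustment over 17565 genes. Tested on simulated data of the same 17565 genes, this comparison found 28% of 50 genes shifted by 2-fold and 78% of 50 shifted by 4-fold. The number of arrays limits the precision. All 36 receptor names matched RefSeq GRCm38.p6. Probe positions are the files' own, on mm9. The text names all 36 receptors, genes among the 4 smallest p of each list except the ERR and vitamin D lists, and any list gene past the threshold. Some list genes are not reported here. The receptors and lists were chosen with earlier results of these data known. The alternatives were normexp correction (offset 50), other scalings, filters on dim probes, probe choices, variance prior, replicate block, array weights, the deposited table, outlier spots kept and omission of arrays. Vdr under each of these was added after the data were seen.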

Additional observations from a re-analysis of the deposited data

Results flagged for a closer look

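A search for a sample far from the other 3 of its group, by Dixon's critical value, covered 62 groups of values (31 receptors at both ages) and marked 4 (6.45%), where chance marks about 1 in 20. Nr2f2 stood at 1.17 in 80-week replicate 4, against 0.67 to 0.73 in the other 80-week replicates. Pparg stood at 1.18 in 80-week replicate 1, against 2.98 to 3.29 in the other 80-week replicates. Rarg stood at 0.23 in 80-week replicate 1, against -0.46 to -0.42 in the other 80-week replicates. Thrb stood at -0.12 in 8-week replicate 1, against 0.27 to 0.35 in the other 8-week replicates.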

How the results depend on the processing

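The count of tested receptors called higher was 0 in the comparison and 1 (Vdr) when dim probes were not filtered and when 2 of 4 arrays of 1 group sufficed; changing 1 choice at a time, it was 0 under every other alternative and in every omission of an array, and the count called lower was 0 throughout. Vdr was then followed under those looser filters with each other choice, which were run apart from the counts above: its difference was 0.49 to 2.31, or 2.07 to 2.61 when 1 array was omitted, and its adjusted p in limma 0.0189 to 0.303, past the threshold in 11 of 22 fits, all but 1 of which admitted Vdr only through the group where it is high, so they support no call. Over all genes 58 were higher; the count was 20 with probes above background on all 8 arrays, 136 with array weights, 12 without 8-week replicates 1 and 2, and 25 to 69 when 1 array was omitted. The 5 lower genes became 8 with quantile scaling, 13 with median scaling, 8 with no filter, 1 with all 8 arrays above background, 9 with the mean of a gene's probes, 8 with every probe tested alone, 8 with a trended robust prior, 36 with array weights, 17 with the replicate block, 2 without 8-week replicates 1 and 2, and 2 to 14 when 1 array was omitted. The cause was not tested. Same-numbered samples deviated together with correlations of 0.0256, 0.141, 0.114 and 0.104, so the number was not taken as a pairing; the replicate block gave 53 higher genes and 0 receptors called. Of 742 receptor differences under the alternatives 27 changed sign and 0 passed the threshold, and 19 of 31 receptors kept their sign throughout. Without 8-week replicates 1 and 2 the sign turned for Nr1i2 (-0.088), Nr5a1 (-0.35), Rarb (0.17), Rarg (0.045), Rxrb (-0.072) and Thra (-0.026). Array weights turned Nr5a1 (-0.20), Rarb (0.040) and Rxrb (-0.0091). Nr2c2 turned under normexp with quantile scaling (-0.059) or the 75th percentile (-0.054), median scaling (-0.097), the percentile of detected probes (-0.017) and the mean of its probes (-0.087), and Nr2f2 under median scaling (-0.039), which moved the median of all genes by -0.10. Omitting 1 array gave -0.18 to 0.024 for Nr1h2, -0.092 to 0.12 for Nr2c2, -0.050 to 0.12 for Nr2f2, -0.10 to 0.43 for Nr3c2, -0.12 to 0.061 for Ppard, -0.22 to 0.0086 for Rara and -0.28 to 0.084 for Rarb. Brightness limits the result, since 25 of 82 receptor probes were never above background and Hnf4g, Nr0b1, Nr2e3 and Pgr have no measured level here.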
